A study of Xenopus tropicalis x Xenopus laevis and Xenopus laevis and Xenopus tropicalis with 8 samples.

Results

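The homeobox transcription factors of the Spemann organizer were followed in Xenopus embryos and in hybrids between 2 Xenopus species. Transcripts of either species carrying the symbols sia1, sia2, gsc, not or lhx1 were taken from the table of transcript abundance, and 17 of 34647 transcripts matched. Of these, 11 were X. laevis transcripts (5 of sia2, 2 of gsc, 2 of not and 2 of lhx1) of 20611, and 6 were X. tropicalis transcripts (2 of sia1 and 1 each of sia2, gsc, not and lhx1) of 14036. No X. laevis transcript carried the symbol sia1, so sia1 and sia2 were also summed. All 17 members reached 1 TPM in at least 1 library.

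Polyadenylated RNA of whole embryos at 9 h post-fertilization was sequenced in 8 libraries. There were 4 groups, embryos of X. laevis, embryos of X. tropicalis and both hybrids between them. In le × ts hybrids the egg was from X. laevis and the sperm from X. tropicalis, and in te × ls hybrids it was the other way round. Each group had 2 libraries, numbered 1 and 3, and no strain, transgene or treatment is named for any of them. The sources used here do not say whether the libraries of a group came from separate crosses, so the p-values measure only the spread between these libraries, which may be technical. A hybrid embryo receives a single haploid set of chromosomes of each species. Whether both sets were still whole in the sampled embryos was not tested. The te × ls embryos are known to die around the time when the embryo's own genome becomes active, which limits them as a model of later organizer function.

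The organizer is the dorsal lip of the gastrula, which patterns the body axis and induces the nervous system. Before gastrulation, maternal β-catenin stabilized on the future dorsal side switches on the siamois genes sia1 and sia2 (sia2 is also called twin). Their homeobox proteins, together with Nodal signalling through Smad2, activate gsc. Goosecoid, the product of gsc, is a homeobox repressor of ventral genes, not encodes a homeobox protein needed for the notochord, and lhx1 encodes a LIM homeobox protein of the organizer. Blastulae at this age are only starting to transcribe these genes, while most of their RNA was laid down by the mother in the egg.

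TPM gives each transcript as a length-corrected share of its library, and the authors kept only reads that matched 1 transcript of 1 species without a mismatch. Reads shared by near-identical copies are lost under that rule, and the division of reads among the 5 X. laevis sia2 transcripts, the 2 X. laevis not transcripts or the 2 X. tropicalis sia1 transcripts is therefore uncertain. Whether such losses differ between the species, and so shift the shares between them, was not tested. The libraries summed to between 999146 and 999534 TPM. X. tropicalis transcripts took 0.293% to 0.332% of TPM in X. laevis embryos and 0.678% and 1.02% in le × ts hybrids, and X. laevis transcripts took 0.124% and 0.230% in X. tropicalis embryos and 0.355% and 0.429% in te × ls hybrids. Read numbers are unknown, but steps at very low TPM placed le × ts replicate 3 at 0.439 times the reads of X. laevis replicate 1 and X. tropicalis replicate 3 at 0.323 times those of X. tropicalis replicate 1, so that these 2 libraries were the shallowest of their pairs. The 8 egg and early embryo markers were all present, with a summed level of 5890 to 9292 TPM. The lists for later muscle (4 of 5 symbols in the table), blood (1 of 5) and neural tissue (4 of 5) summed to 4.56 to 33.6, 0 to 2.84 and 0.644 to 10.1 TPM. A sperm and testis list (5 of 7 symbols, without odf1 and prm1) summed to 26.5 to 33.8 TPM in both groups from X. laevis eggs and to 1.63 to 3.96 TPM in both groups from X. tropicalis eggs, with acr below 1 TPM in every library. The part of these markers in the member values was not tested. In whole embryos, fewer expressing cells and less RNA per cell cannot be told apart.

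The members spanned a wide range of levels. By length-corrected level not was the most abundant, the siamois genes followed, and gsc and lhx1 were low. Summed over both species, not stood at 217 and 189 TPM in X. laevis embryos, 205 and 163 in le × ts, 76.9 and 181 in te × ls and 135 and 318 in X. tropicalis. Both te × ls libraries were below both X. laevis libraries, the other groups overlapped, and the 2 replicates of X. tropicalis differed by more than any group means did. The sum of sia1 and sia2 was 34.6 and 36.8 TPM in X. laevis, 45.5 and 39.9 in le × ts, 25.9 and 33.6 in te × ls and 43.0 and 64.2 in X. tropicalis. Both le × ts libraries were thus above both X. laevis libraries, and both te × ls libraries below both X. tropicalis libraries, and the smallest two-sided exact permutation p that 2 against 2 libraries allow is 0.33. In group means the siamois sum was 35.7 ± 1.52 TPM in X. laevis, 42.7 ± 3.96 in le × ts, 29.8 ± 5.41 in te × ls and 53.6 ± 15.0 in X. tropicalis (SD, n = 2 each).

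The gsc sum was 6.56 and 0.775 TPM in X. laevis, 4.70 and 0.684 in le × ts, 7.59 and 15.0 in te × ls and 12.3 and 23.6 in X. tropicalis. Every library from X. tropicalis eggs was thus above every library from X. laevis eggs. The margin was narrow, 7.59 against 6.56 TPM, beside the spread between the X. laevis libraries. The lhx1 sum was 4.41 and 3.67 TPM in X. laevis, 5.92 and 5.01 in le × ts, 2.07 and 2.42 in te × ls and 2.57 and 4.32 in X. tropicalis. The le × ts hybrids had the highest lhx1 sums and te × ls the lowest, with the 2 unhybridized species overlapping in between. For how many other genes such sums set groups apart was not counted, here or for not and the siamois genes.

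**Figure D1:**
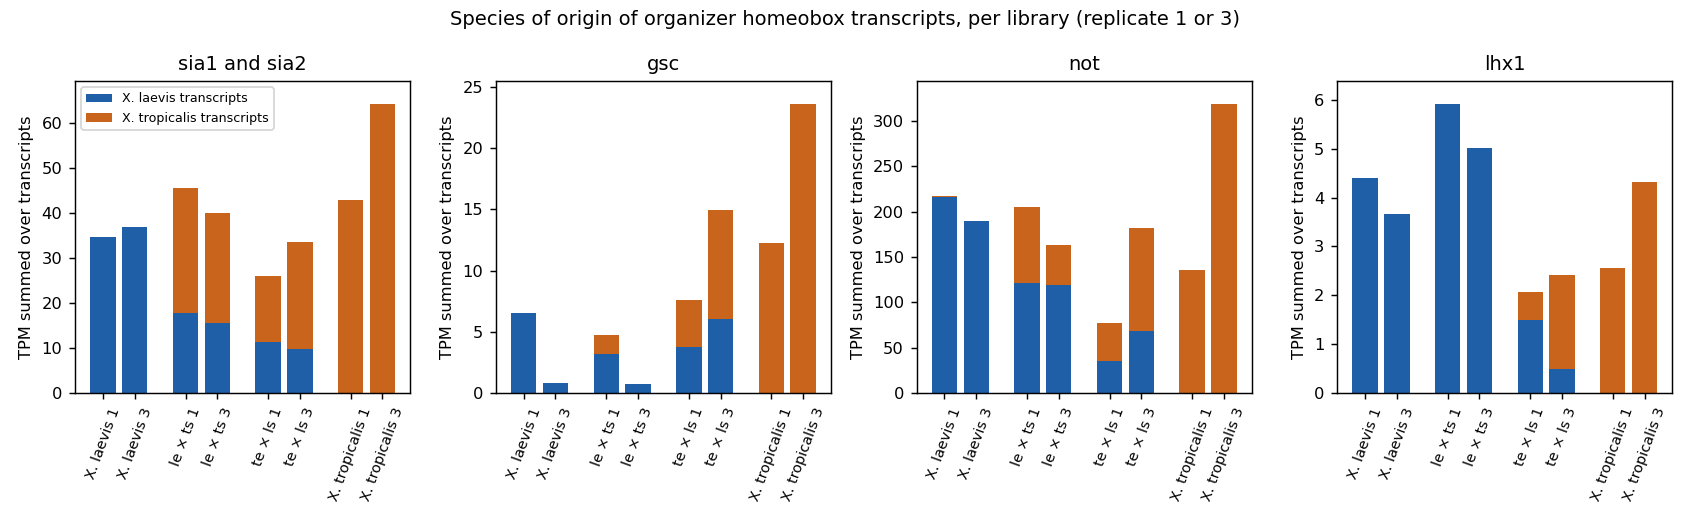
Stacked bars give the TPM summed over the transcripts of each gene (vertical axis) in each library (horizontal axis), split into X. laevis (blue) and X. tropicalis (orange) transcripts. Both hybrids carried both colours for the siamois genes and not, while lhx1 in le × ts was X. laevis only at 5.92 and 5.01 TPM.

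The first question the hybrids can answer is whether the copy brought by the sperm was transcribed. In le × ts hybrids the sperm is X. tropicalis, and 3 of the 6 X. tropicalis members were at 1 TPM or more in both libraries: not, sia2 and the more abundant sia1 transcript. X. tropicalis not (Tan201204_XENTRc2cell2_000022495) was at 83.5 and 44.3 TPM in le × ts against a background of 0.146 and 0.128 TPM in X. laevis embryos. X. tropicalis sia2 (Xetrov14048884m) was at 16.1 and 20.7 TPM, and the more abundant sia1 transcript (Xetrov14048885m) at 10.8 and 3.73 TPM, both at 0 in both X. laevis libraries. The remaining X. tropicalis members were sparse in le × ts. The other sia1 transcript (Xetrov14029687m) was at 0.925 and 0 TPM and gsc (Tan201204_XENTRc2st11_000025017) at 1.49 and 0 TPM, while lhx1 (Xetrov14007735m) was at 0 in both. The library at 0 for sia1 and gsc was replicate 3, the shallower of the pair.

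In te × ls hybrids the sperm is X. laevis, and 10 of the 11 X. laevis members were above 0. The 2 X. laevis not transcripts were at 17.1 and 34.7 TPM (Chang2013_000109931) and at 18.1 and 33.4 TPM (TeperekTkacz201202_000158550), against 0.360 and 0 TPM and against 0 and 0 TPM in X. tropicalis embryos. The most abundant X. laevis sia2 transcript (Taira201203st09_000188999) was at 7.17 and 7.31 TPM. X. laevis gsc was present in both te × ls libraries, at 2.09 and 2.49 TPM (Ueno201210ovary_000143307) and at 1.62 and 3.58 TPM (Park201106_000270347). Of the 11 X. laevis members, not (Chang2013_000109931) was the only one above 0 in an X. tropicalis library.

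The sperm's species supplied 61.1% and 61.3% of siamois TPM in le × ts (61.2 ± 0.135%, SD, n = 2) and 43.8% and 29.2% in te × ls (36.5 ± 10.3%). The small SD in le × ts holds for the sum only. From replicate 1 to 3, X. tropicalis sia1 (Xetrov14048885m) fell from 10.8 to 3.73 TPM while sia2 rose from 16.1 to 20.7 TPM. This share was also higher from the most abundant transcripts alone, as given in the closing section. For not the shares were 40.8% and 27.1% in le × ts (34.0 ± 9.64%) and 45.8% and 37.5% in te × ls (41.7 ± 5.84%). The corresponding background for not was 0.0674% and 0.0676% in X. laevis embryos and 0.266% and 0% in X. tropicalis embryos, and for the other genes it was 0%. For gsc the sperm's species supplied 31.7% and 0% in le × ts and 48.9% and 40.5% in te × ls, and for lhx1 it supplied 0% and 0% in le × ts and 72.1% and 20.0% in te × ls. The hybrid and egg-species libraries did not overlap in 2 of 4 comparisons in le × ts and in 4 of 4 in te × ls (two-sided exact permutation p = 0.33 each, the smallest possible), and they did in gsc and lhx1 of le × ts (exact p = 1 each). With the egg's species near 0, few sperm-species reads in both hybrid libraries are enough to set the groups apart, and this was so for 12.6% of 9287 symbols with transcripts of both species in le × ts and 27.7% of 9125 in te × ls. Taken from the most abundant transcript of each species alone, the te × ls shares were 26.3% for not and 28.4% for gsc. The lhx1 share of te × ls rests on values of 0.187 to 1.94 TPM, and the share of gsc in le × ts on a single library.

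**Figure D2:**
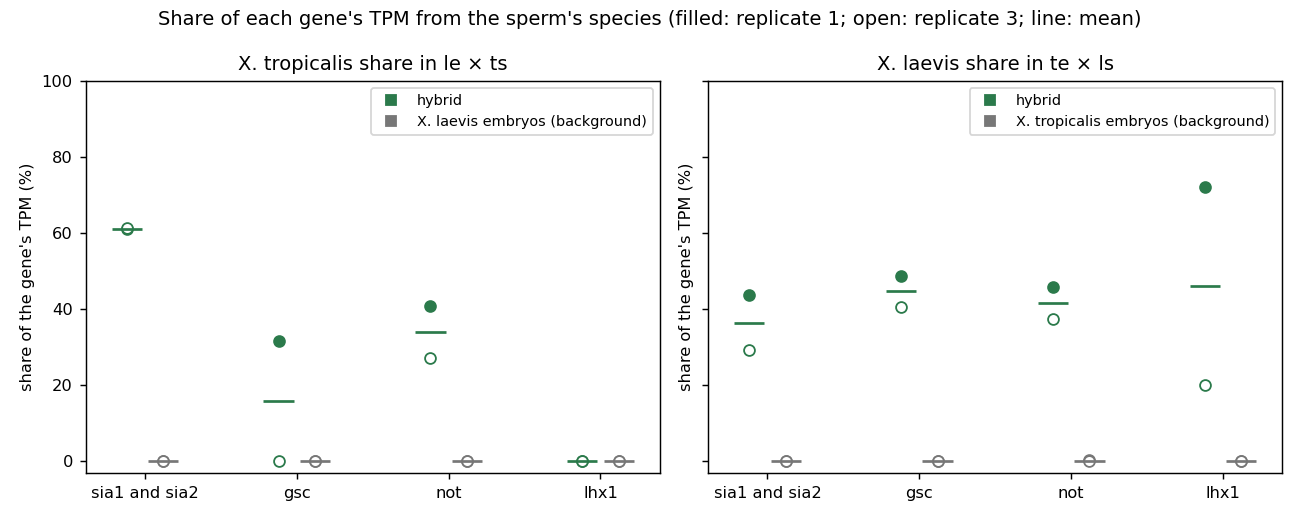
Points give the percent of each gene's TPM (vertical axis) that came from the sperm's species in each hybrid library (green) and the same measure in embryos of the egg's species (grey), with lines at the means. The le × ts siamois shares lay together at 61.1% and 61.3%, while the 2 lhx1 shares of te × ls lay at 72.1% and 20.0%.

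In the test of le × ts against X. laevis embryos across all transcripts (limma on log2(TPM + 1), Benjamini-Hochberg over 17526 transcripts of both species), 0 transcripts passed an adjusted p of 0.05 with more than a 2-fold difference, which is 0% of those tested, and 209 had an unadjusted p below 0.05. With edgeR and the same cutoffs, the authors reported X. tropicalis genes that were more abundant in le × ts. Sia2 and Not were among the transcription factors they took from that result to screen. The lack of calls in the TPM-based fit of 4 libraries therefore does not mean that no sperm-species transcript differed. The 3 X. tropicalis members that could be tested were higher in both hybrid libraries by more than 2-fold. Because a transcript absent from X. laevis embryos passes the filter of 1 TPM in 2 libraries only through the hybrid, their order was fixed by the filter, and 37.6% of the 482 X. tropicalis transcripts tested were likewise higher and apart. X. tropicalis not had a log2 difference of 5.77 (SE 0.43, limma adjusted p = 0.281, which no transcript of this fit went below). In te × ls against X. tropicalis embryos, 0 of 12073 transcripts were called (0%), with 565 at an unadjusted p below 0.05. The 6 X. laevis members that could be tested were higher and apart, again by the filter, beside 76.1% of the 514 X. laevis transcripts tested, and X. laevis not (Chang2013_000109931) had a log2 difference of 4.45 (SE 0.42, limma adjusted p = 0.0740).

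The second question is how far the copies of the egg's species held their level. A hybrid holds a single chromosome set of that species where its own embryos hold 2, and the part of copy number was not tested. Egg-stored RNA came from the same species of egg in both, and the shares over all transcripts include it. In le × ts, 2 of the 10 X. laevis members tested were lower than in X. laevis embryos by more than 2-fold with the groups apart, beside 0.557% of all X. laevis transcripts tested. X. laevis not (TeperekTkacz201202_000158550) was at 77.5 and 68.1 TPM in X. laevis and 28.8 and 12.3 TPM in le × ts, a log2 difference of -1.89 (SE 0.45). The most abundant X. laevis sia2 transcript (Taira201203st09_000188999) was at 19.4 and 22.1 TPM in X. laevis and at 8.97 and 5.89 TPM in le × ts, a log2 difference of -1.39 (SE 0.35). Neither passed the limma test after adjustment (adjusted p = 1 for both). Both stayed lower by more than 2-fold when any single library was left out, where groups once apart remain so by construction. In each such setting a larger share of all X. laevis transcripts was also lower and apart by more than 2-fold. The median log2 difference was -0.46 over the 10 X. laevis members tested and -0.53 over the 9 whose order the filter did not fix, against 0.01 over all X. laevis transcripts tested.

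The other X. laevis members differed less. The second not transcript (Chang2013_000109931) was at 138.9 and 121 TPM in X. laevis and 92.5 and 106.6 TPM in le × ts, a log2 difference of -0.38 (SE 0.24) with the groups apart. The sia2 transcripts JGIv15_15021882 (6.45 and 7.57 against 3.56 and 5.68 TPM), Taira201203st09_000198741 (5.45 and 4.18 against 2.93 and 2.01 TPM) and JGIv14_28711145 (2.47 and 1.95 against 1.68 and 1.88 TPM) were also lower in both hybrid libraries, by -0.53, -0.75 and -0.20 on the log2 scale. Of the lhx1 transcripts, JGIv14_28749404 overlapped between the groups (3.82 and 2.96 against 4.57 and 3.70 TPM, log2 difference 0.23), and MK201406_0109469 was at 0.585 and 0.709 against 1.34 and 1.31 TPM (log2 difference 0.50), an order fixed by the filter. The gsc transcripts overlapped between the groups, with the X. laevis library of 5.53 TPM (Ueno201210ovary_000143307) far above its partner at 0.775 TPM. The remaining sia2 transcript, JGIv610_0038344, did not pass the filter, at 0.923 and 1.0 TPM in X. laevis and 0.572 and 0 TPM in le × ts.

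In te × ls, 5 of the 6 X. tropicalis members were lower than in X. tropicalis embryos by more than 2-fold with the groups apart, beside 1.21% of all X. tropicalis transcripts tested. As in le × ts, copy number differs between the groups, and egg-stored transcripts are among those tested. X. tropicalis sia2 was at 26.9 and 36.7 TPM in X. tropicalis and at 9.11 and 11.0 TPM in te × ls, a log2 difference of -1.56 (SE 0.24, limma adjusted p = 0.137). The more abundant sia1 transcript was at 14.9 and 21.1 against 4.87 and 7.87 TPM, a difference of -1.38 (SE 0.32, limma adjusted p = 0.334). Both siamois transcripts stood apart by a gap wider than the spread within either group.

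X. tropicalis not was at 135 and 318 TPM in X. tropicalis and at 41.7 and 113 TPM in te × ls (log2 difference -1.58, SE 0.65). X. tropicalis gsc was at 12.3 and 23.6 against 3.88 and 8.89 TPM (-1.38, SE 0.50), and lhx1 at 2.57 and 4.32 against 0.579 and 1.94 TPM (-1.02, SE 0.42). None of these 3 passed the limma test without a block (adjusted p = 1 each). The fit with replicate number as a block, given in the closing section, called X. tropicalis gsc and not lower and left lhx1 uncalled. Equal numbers are not stated to mark pairs. The less abundant sia1 transcript overlapped, at 1.15 and 6.39 against 0.609 and 4.94 TPM. The median over the 6 was -1.38, against -0.01 over all X. tropicalis transcripts tested. X. tropicalis replicate 3 was the shallow library with the higher value for all 6. Without it, 2 members were lower and apart by more than 2-fold, beside 0.948% of all X. tropicalis transcripts tested. Without te × ls replicate 1 the count was also 2, beside 0.986%. The 2 that kept their place were sia2 and the more abundant sia1 transcript. Replicate 3 was above replicate 1 for 6 of 6 X. tropicalis members in te × ls and in X. tropicalis embryos, where 44.9% and 45.7% of all X. tropicalis transcripts at a mean of 1 TPM or more were above.

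**Figure D3:**
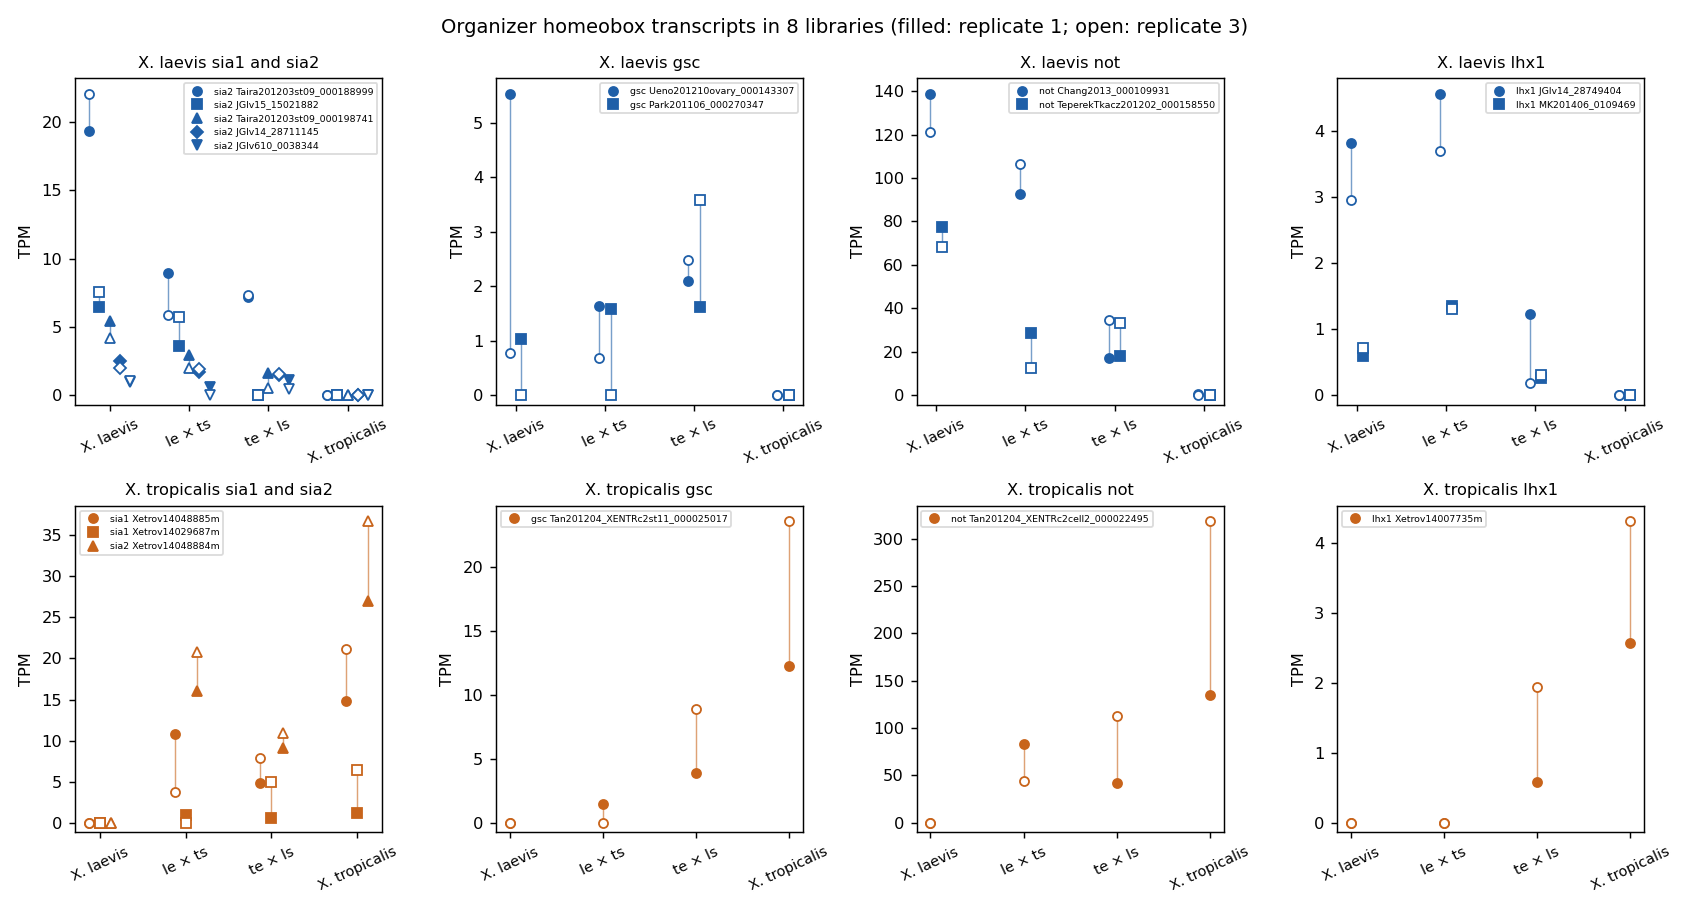
Each symbol is the TPM (vertical axis, linear, its own scale in each panel) of 1 member transcript in 1 library, by group (horizontal axis), with X. laevis transcripts in the upper row, X. tropicalis transcripts in the lower row, filled symbols for replicate 1 and open symbols for replicate 3. X. tropicalis sia2 lay in separate ranges, 26.9 to 36.7 TPM in X. tropicalis embryos and 9.11 to 11.0 TPM in te × ls, while X. tropicalis not ran from 135 to 318 TPM within its own species.

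Members coming from the sperm were also set beside embryos of the sperm's own species. These comparisons share the hybrid libraries with those above. Embryos of the sperm's own species also hold egg RNA of that species, which the hybrids lack, and more than the single chromosome set a hybrid receives. The background over all transcripts therefore does not show where the members stand among newly transcribed genes. In le × ts against X. tropicalis embryos, 98.3% of the 11005 X. tropicalis transcripts tested were called lower by limma, with a median log2 difference of -5.25 and a median level of 0.0932% of that in X. tropicalis embryos, and 2 of the 6 members were called lower. Those were gsc (log2 difference -3.52, SE 0.61, adjusted p = 0.00739), at 4.14% of its mean in X. tropicalis embryos, and lhx1 (-2.12, SE 0.24, adjusted p = 0.00200), listed at 0 in both hybrid libraries, its order fixed by the filter. X. tropicalis sia2 reached 57.8% of its mean in its own species, a log2 difference of -0.75 (SE 0.24, limma adjusted p = 0.0448), which is under the 2-fold limit. A smaller reduction than that of sia2, or an increase, was found for 45 of the 11005 X. tropicalis transcripts tested. The more abundant sia1 transcript was at 40.4% (-1.33, adjusted p = 0.0811), not at 28.2% (-1.75, adjusted p = 0.0715), and the less abundant sia1 transcript at 12.3% (-1.52, adjusted p = 0.132, limma throughout), the last with its order fixed by the filter.

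In te × ls against X. laevis embryos, 98.3% of the 15950 X. laevis transcripts tested were called lower by limma, with a median log2 difference of -4.77, and 6 of the 10 members tested were called lower, with a median of -1.41 over the 10 and -1.40 over the 9 whose order the filter did not fix. The most abundant sia2 transcript was at 34.9% of its mean in X. laevis embryos (-1.40, SE 0.10, adjusted p = 0.000399), and not was at 19.9% (Chang2013_000109931, -2.36, adjusted p = 0.00593) and at 35.4% (TeperekTkacz201202_000158550, -1.52, adjusted p = 0.0150). The sia2 transcript Taira201203st09_000198741 (-1.54, adjusted p = 0.0144) and lhx1 JGIv14_28749404 (-1.42, adjusted p = 0.0226) were called lower too, but without te × ls replicate 3 their adjusted p-values were 0.0502 and 0.0760. The call for sia2 JGIv15_15021882, at 6.45 and 7.57 TPM in X. laevis, came from a transcript listed at 0 in both te × ls libraries (adjusted p = 6.3e-05, order fixed by the filter). The other sia2 transcripts were low in both groups and were not called, JGIv14_28711145 at 1.46 and 1.56 TPM in te × ls (-0.35, adjusted p = 0.0620) and JGIv610_0038344 at 1.09 and 0.446 TPM (-0.17, adjusted p = 0.477). For lhx1 MK201406_0109469, at 0.263 and 0.297 TPM in te × ls, the filter was not passed. The gsc transcript Park201106_000270347 was higher in te × ls, at 1.62 and 3.58 TPM, than in X. laevis embryos, at 1.02 and 0 TPM (log2 difference 1.28, limma adjusted p = 0.0672). The te × ls libraries alone took this transcript past the filter of 1 TPM in 2 libraries. Most X. laevis transcripts tested were lower, so a rank among them would not set it apart. The other gsc transcript overlapped between the groups (-0.05, adjusted p = 0.944).

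Quantile normalization, which forces libraries of such different species makeup onto a single distribution, turned the direction of 6 of these te × ls differences, among them the most abundant sia2 transcript at 0.14.

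For not and sia2, the ratio between 2 X. laevis transcripts of the gene was followed across the groups. How often such ratios differ between groups in other genes was not counted, so these ratios have no background beside them. The TPM of not (Chang2013_000109931) divided by that of the other not transcript was 1.79 and 1.78 in X. laevis embryos, 3.21 and 8.67 in le × ts and 0.945 and 1.04 in te × ls. These 3 pairs did not overlap, and the X. laevis not transcripts were most unequal in le × ts and nearly equal in te × ls (smallest exact permutation p for any pair of groups 0.33). The le × ts ratios differed widely, and the 8.67 came from replicate 3, the shallower library. Whether sequence differences between the parents of the crosses changed which reads matched was not tested. In le × ts the 2 transcripts stood at 76.6% and 28.2% of their means in X. laevis embryos. For sia2, JGIv15_15021882 divided by the most abundant sia2 transcript was 0.33 and 0.34 in X. laevis, 0.397 and 0.965 in le × ts and 0 and 0 in te × ls. The most abundant sia2 transcript itself was at 35.9% of its X. laevis mean in le × ts and at 34.9% in te × ls. Whether these transcripts are alleles, homeologs or fragments of a gene is not given in the files.

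The other genes of the organizer pathway were followed in lists of 62 symbols. Their transcripts from the egg's species were compared as above, and limma called 0 transcripts of any list in either hybrid against embryos of the egg's species. In te × ls, 7 of 7 tested X. tropicalis transcripts of secreted organizer factors were lower by more than 2-fold and apart, as were 3 of 3 of the other organizer transcription factors, beside the 1.21% of all X. tropicalis transcripts given above, with list medians of -1.19 and -1.53. Those tested covered 7 of the 14 listed symbols for secreted factors and 3 of the 10 for transcription factors. X. tropicalis admp, a BMP-like ligand of the organizer, was at 44.4 and 76.0 TPM in X. tropicalis and 12.9 and 24.9 TPM in te × ls (-1.64, SE 0.43). X. tropicalis nodal3, a divergent Nodal relative made in the organizer, was at 30.8 and 39.2 against 11.0 and 16.2 TPM (-1.31, SE 0.26). X. tropicalis foxa4, a forkhead factor of the organizer, was at 11.5 and 26.8 against 3.37 and 7.16 TPM (-1.64, SE 0.54). In each of these genes both hybrid libraries lay below both X. tropicalis libraries, though foxa4 replicates differed by more than 2-fold.

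The inputs to the organizer were divided. Abundant egg-stored inputs such as X. tropicalis ctnnb1, which encodes β-catenin, stood at 1270 and 1094 TPM in X. tropicalis and 1273 and 1073 TPM in te × ls, and the median of the 24 input transcripts was -0.07. In 5 of those 24 the level was lower and apart by more than 2-fold, among them nodal6 (-1.07) and 1 of 3 nodal5 transcripts (-1.04, with -0.97 and -0.45 for the others), which encode Nodal ligands. Of the 12 transcripts of ventral factors that oppose the organizer, 4 were lower and apart by more than 2-fold, such as Tan201204_XENTRc2st11_000020250, the least abundant of 3 transcripts of the homeobox repressor ventx2, at 23.1 and 36.2 against 8.86 and 7.36 TPM (-1.72, SE 0.29). The 2 more abundant ventx2 transcripts overlapped between the groups, with log2 differences of -1.09 (SE 0.56) and -1.12 (SE 1.2). The median over the 12 ventral transcripts was -1.09, beside -1.19 for the secreted organizer factors and -0.07 for the inputs. Only the most abundant ventral transcripts were near their X. tropicalis level, with the BMP pseudoreceptor bambi at 326 and 322 TPM in X. tropicalis and 330 and 357 TPM in te × ls.

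In le × ts the X. laevis transcripts of the same lists were compared with X. laevis embryos. Lower and apart by more than 2-fold were 4 of 12 for secreted factors, 2 of 5 for other organizer transcription factors (1 with its order fixed by the filter), 4 of 36 for inputs and 4 of 21 for ventral factors, beside 0.557% of X. laevis transcripts overall. The list medians were -0.90, -1.09, 0.05 and -0.61. Of the 2 X. laevis transcripts of nog, the BMP antagonist noggin, Ueno2012102cells_000196310 was at 6.22 and 1.91 TPM in X. laevis and 1.1 and 0.486 TPM in le × ts (-1.38, SE 0.59), while the more abundant Park201106_000415433 had means of 6.96 and 3.57 TPM (-0.77, SE 0.40). Of the 2 transcripts of dkk1, a Wnt antagonist, Ismailoglu201203_000208955 was at 4.12 and 3.25 against 0.894 and 1.13 TPM (-1.22, SE 0.40), while the more abundant Taira201203st09_000204322 differed by -0.94 (SE 0.45). Not all secreted factors were lower. X. laevis cer1 was at 16.9 and 23.4 TPM in X. laevis and 19.7 and 28.1 TPM in le × ts (0.23, SE 0.34). For sfrp2, the more abundant Quigley201112_000426717 was at 8.89 and 6.75 against 8.24 and 10.3 TPM (0.22, SE 0.35), and JGIv14_28741158 differed by -0.86 (SE 0.61). X. laevis ctnnb1 (Quigley201207_000550487) was at 533 and 477 against 563 and 537 TPM.

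**Figure D4:**
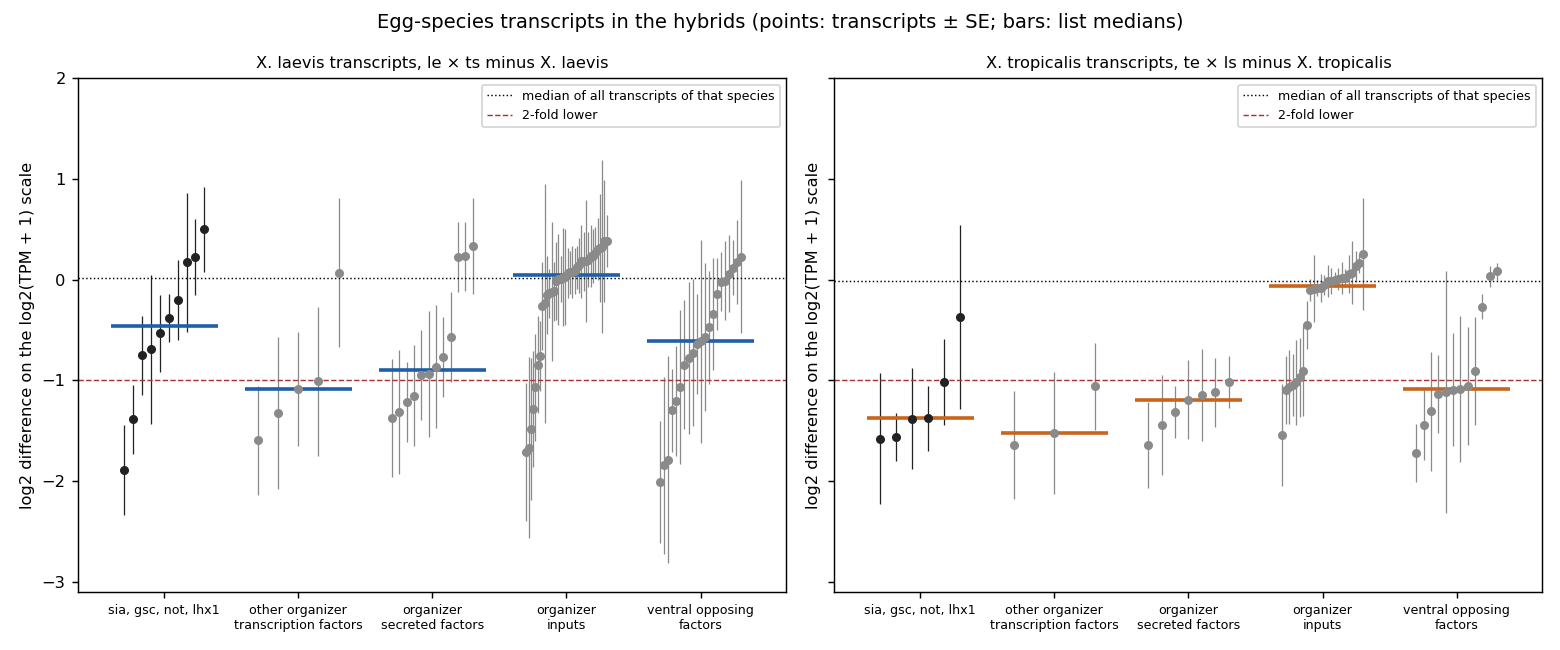
Points are log2 differences on the log2(TPM + 1) scale (vertical axis, with SE) of egg-species transcripts in le × ts (left) and te × ls (right), grouped by gene list (horizontal axis), with coloured bars at list medians, a dotted line at the median of all transcripts of that species and a dashed line at 2-fold lower. The member medians lay at -0.46 and -1.38, those of the ventral factors at -0.61 and -1.09, and those of the organizer inputs at 0.05 and -0.07.

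Named transcripts most like the members across the 8 libraries were found by the root-mean-square difference of log2(TPM + 1) within the same species, which reflects level as well as pattern. X. tropicalis not was nearest to klf17 (0.32), id3 (0.50) and cxcr4 (0.76), and X. tropicalis sia2 to nodal3 (0.52), ventx2 (0.58) and gs17 (0.65). The more abundant X. tropicalis sia1 transcript was nearest to a foxh1 transcript (0.31), sbk1 (0.33) and znf630 (0.34). X. tropicalis gsc was nearest to foxa4 (0.23), hspa2 (0.28) and wnt11b (0.35). For X. laevis, the most abundant sia2 transcript was nearest to rasl11b (0.30), znf239 (0.35) and klf4 (0.38), and gsc (Ueno201210ovary_000143307) to zic1 (0.25), foxd4l1 (0.27) and atoh1 (0.30). X. laevis not (Chang2013_000109931) was nearest to ier5l (0.47) and to 2 transcripts of the translation factor gene eef1a1 (0.53 and 0.64).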

How the data were processed

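Polyadenylated RNA of whole embryos was sequenced in 8 libraries, and the labels gave each library's group and number. The authors mapped reads with Bowtie to a combined transcript database of both species and deposited TPM from RSEM, 1 value per transcript and library, while the labels name BWA 0.7.10. The deposited values need not keep the allele or homeolog that a read came from. Depth is unknown beyond the ratios given, so no counting intervals are given. The table had 0 unused sample columns, and no genome, annotation or sequence was used here.

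Tests used R 4.3.3 and limma 3.58.1 (lmFit and eBayes with a mean trend) on log2(TPM + 1), keeping a transcript if 2 of the 4 libraries in a fit had 1 TPM or more, with Benjamini-Hochberg adjustment over all transcripts of both species. Calls needed an adjusted p under 0.05 and more than a 2-fold difference. The fit was also run on simulated data with independent noise and large added changes. That setting does not show how well it detects differences of the size seen here. "Apart" means that every hybrid library lay on 1 side of every library of the other group. Shares were compared by two-sided exact permutation tests, beside all named symbols with transcripts of both species and a sum of 1 TPM or more in 2 libraries.

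The members and gene lists were chosen with earlier results of these data known. Named were all members, the nearest transcripts of the most abundant member of each symbol and species at 5 TPM or more, and, for each list and species, called transcripts and the 3 most abundant, of which a selection is printed. In addition, ventx2, nodal5, nodal6, nog and dkk1 were chosen after their values were seen. Alternatives were other pseudocounts, filters, scalings and spreads, sums by symbol, a joint fit of every group, a replicate block and each library left out.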

Additional observations from a re-analysis of the deposited data

How the results depend on the processing

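The counts of calls depended on the processing. In le × ts against X. laevis (0 calls) the count was 141 with the replicate block, 4 with all 4 groups in 1 fit and 0 to 1 with 1 library left out. In te × ls against X. tropicalis (0 calls) it was 454 with the replicate block, 230 and 26 at pseudocounts of 0.1 and 0.5, 133 with all 4 groups in 1 fit, 183 without the mean trend, 64 for TPM summed by symbol and 0 to 30 with 1 library left out. Against the sperm's species, the counts over both species ran from 10973 to 16485 (26426 with all libraries, le × ts) and from 11482 to 16036 (26574, te × ls) with 1 library left out, where fewer samples were fitted. The replicate numbers are not stated to mark pairs. Deviations of same-numbered libraries correlated at 0.76 and 0.84 in the comparisons with the egg's species. In those with the sperm's species they correlated at -0.03 and -0.02. There most transcripts had almost no TPM in either the hybrid or the other group. Whether this lowered the correlations was not tested, and the low values are not read as showing whether the numbers mark pairs. Under the replicate block, 4 of 6 X. tropicalis members were called lower in te × ls against X. tropicalis. They were gsc, not, sia2 and the more abundant sia1 transcript. The 454 calls of that fit are over 12073 transcripts of both species and both directions. Under the same block, 1 of 10 X. laevis members was called lower in le × ts against X. laevis. This was the not transcript TeperekTkacz201202_000158550, in a fit with 141 calls over 17526 transcripts. Shares of the egg's species alone were not counted. Sperm-species members whose order the filter fixed, 3 in le × ts and 6 in te × ls, were all called higher under the block.

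The siamois share in le × ts was 71.0% from the most abundant transcript of each species and 61.6% from transcripts at a mean of 1 TPM or more. In te × ls the gsc share was 28.4% in both cases and the not share 26.3% from the most abundant transcripts. The count of X. tropicalis members lower and apart in te × ls (5) ranged from 2 to 6 with 1 library left out, an alternative chosen after seeing the data. The share of all X. tropicalis transcripts tested moved with it, from 0.948% to 2.34%. Several log2 differences turned their sign, and the cause was not tested. X. laevis gsc Park201106_000270347 in le × ts against X. laevis was -0.46 summed by symbol and -0.33 to 0.86 with 1 library left out, and X. tropicalis sia1 Xetrov14029687m in te × ls against X. tropicalis was -1.31 to 0.58. In te × ls against X. laevis, gsc Ueno201210ovary_000143307 was 0.10 and 0.0034 at pseudocounts of 0.1 and 0.5, 1.92 under quantile normalization, 0.66 summed by symbol and -0.99 to 0.89 with 1 library left out, and sia2 JGIv610_0038344 was -0.20 to 0.0904. Under quantile normalization this comparison also gave 0.88 for lhx1 JGIv14_28749404 and 1.67, 1.65, 0.14 and 0.95 for sia2 JGIv14_28711145, JGIv610_0038344, Taira201203st09_000188999 and Taira201203st09_000198741. With 2 libraries per group and unknown read numbers, values near 1 TPM cannot separate absence from low depth.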
